A study of Mus musculus with 5 samples.

Results

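Mucins are heavily O-glycosylated proteins that make up or anchor airway mucus. The genes described here are 10 mouse genes: the membrane mucins Muc1, Muc4, Muc16 and Muc20, the secreted gel-forming mucins Muc5b and Muc5ac, and Agr2, Spdef, Tff2 and Creb3l1, which act in mucous cells. Their members on the array are the probe sets that the annotation assigns to 1 of these genes alone, which gave 14 of the 45037 probe sets that are not controls. No probe set listed one of the genes together with another gene (0 found). Of the 18193 genes with a probe set of their own, these are 10, and 9 of them lay above the filter on dim probe sets; Muc5ac did not.

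RNA of sorted tracheal epithelial cells was measured on Affymetrix arrays; the mice were C57BL/6, of both sexes and 8 to 12 weeks old, with a separate pool of 10 to 15 mice for each sample. The duct group held 3 arrays, of cells sorted with 1 surface antigen from the upper part of the trachea after the surface epithelium had been taken off with the enzyme pronase; the label calls them duct cells of the submucosal glands. The basal group held 2 arrays, of cells sorted for the same antigen and for ITGA6 from surface epithelium of the lower part, freed with the enzyme dispase. Section, enzyme and sort gate therefore changed together with the cell type and cannot be told apart from it. The labels name no transgene and no treatment of the mice. In sorted pools, fewer cells of a type and less RNA per cell cannot be told apart either.

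Secreted mucins are stored in granules of mucous (goblet) cells and gland mucous cells and swell into a gel on release, while membrane mucins stay on the apical surface of many epithelial cells. In the mouse trachea mucous cells are few in the healthy surface epithelium, and Muc5b is the mucin its secretory cells and glands make without stimulation, whereas Muc5ac is known for its induction in allergic airways. Spdef, an ETS transcription factor, drives mucous cell differentiation, and Agr2, a protein disulphide isomerase of the endoplasmic reticulum, is needed for mucin folding.

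None of these genes passed the test between the groups, and the gel-forming mucin Muc5b varied more within the basal group than between the groups. With limma (Benjamini-Hochberg over 12536 genes), 0 of the 9 tested genes passed an adjusted p of 0.05, against 0.973% of all genes tested (0.838% higher and 0.136% lower in duct cells). At an unadjusted p under 0.05, 2 were higher and 1 was lower in duct cells, against 7.91% and 10.6% of all genes. Those 3 were the membrane mucins Muc20, Muc4 and Muc1, and they were the only ones of the 9 whose duct and basal arrays did not overlap. Duct arrays lay above both basal arrays in 16.5% and below both in 22.6% of all genes tested. By probe set, 11 of the 14 were tested and 0 were called, against 0.233% of all 27022 probe sets (0.215% higher and 0.0185% lower). Of these 11, 2 were higher and 1 was lower at an unadjusted p under 0.05, against 6.21% and 8.68% of all probe sets, and the same 3 did not overlap, against 14.9% with the duct arrays above and 20.7% with them below. Intensities are linear and in arbitrary units. Each log2 fold change is the mean over duct arrays minus that over basal arrays of log2(intensity + 16). For dim genes the added 16 makes log2 differences between arrays smaller. Where values lie below the background controls described below, the size of a fold change is not measured.

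**Figure D1:**
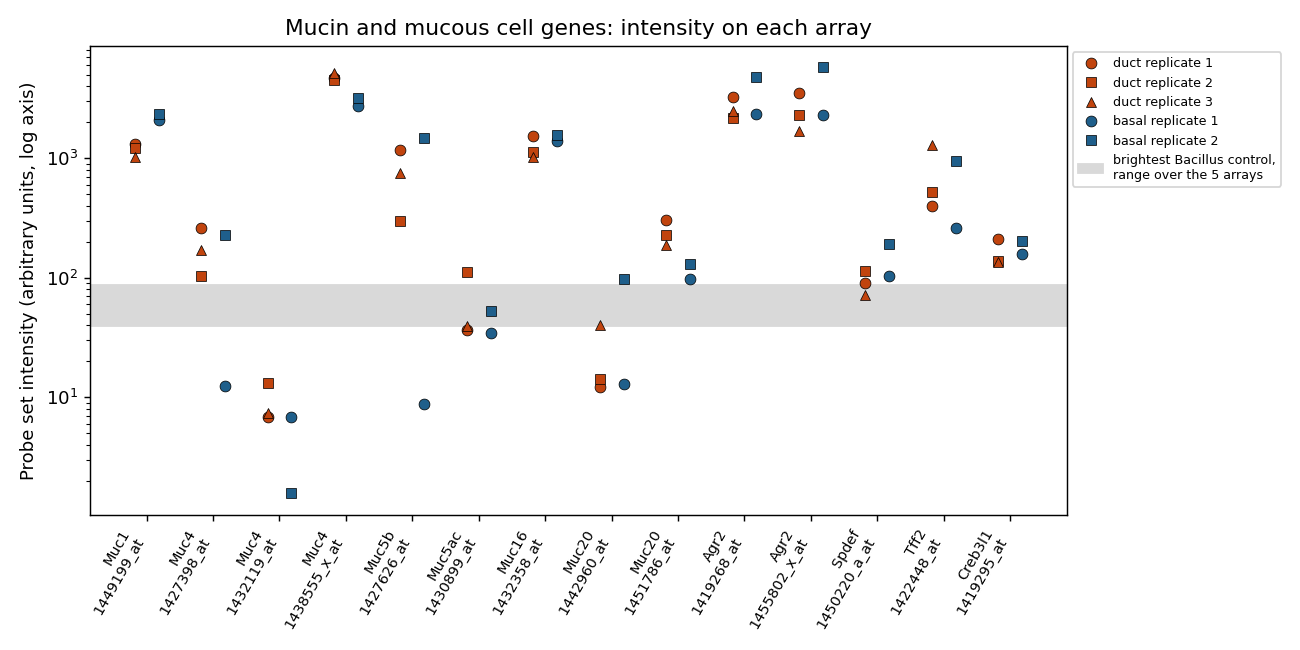
Intensity of the 14 probe sets on the 3 duct and 2 basal arrays, on a log axis in arbitrary units, with 1 symbol per array; the grey band spans the brightest Bacillus control probe set of each array, from 39.5 to 86.5. Muc1, Muc4 (1438555_x_at) and Muc20 (1451786_at) show groups that do not overlap, and Muc5b spans from 8.81 to 1491 within the basal group alone.

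As no detection calls were used, 27 control probe sets for Bacillus transcripts served as a measure of background. The brightest of them measured 39.5, 55.9 and 61.9 on duct arrays 1, 2 and 3, and 59.7 and 86.5 on basal arrays 1 and 2. Median intensity was 92.3 on duct replicate 1 and 146.5 to 152.8 on the other 4 arrays. The cells carried airway basal keratins in both groups, but at levels that differed by gene. Krt5 averaged 18134 in duct and 11976 in basal cells. Of the 6 tested airway basal cell markers, 2 were called higher in duct cells and 0 lower. These were Krt14, at 19816 in duct and 1430 in basal cells, and Krt17, at 8045 and 2295. Ngfr, at 542.1 and 1806, and Trp63, at 7080 and 8964, went the other way without a call. Of 10 squamous epithelium markers 9 were called higher in duct cells, and of 4 tested thyroid markers 1 was. The summed intensity of the squamous markers was 73077 to 103451 on the duct arrays and 7947 to 9954 on the basal arrays. That of the thyroid markers was 9344 to 21355 on the duct arrays and 233.1 to 266.2 on the basal arrays. Whether these signals came from the sorted cells themselves or from other tissue was not tested. Any part of other tissue in the values below was not tested either.

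Among the membrane mucins, Muc1, a single-span glycoprotein of apical surfaces, had the lowest log2 fold change of the 9 genes. It measured 1325, 1231 and 1031 on the duct arrays and 2080 and 2336 on the basal arrays. Every duct array lay below both basal arrays. The log2 fold change was -0.88 (SE 0.25, 95% interval -1.49 to -0.27, adjusted p = 0.153 with limma). When the variance was allowed to follow intensity (limma with trend and robust), the same fold change had an adjusted p of 0.0427. That setting called 377 of all 12536 genes lower in duct cells, against 17 in the main fit. With the replicate number as a block the value was -0.78 (adjusted p = 0.432), and centring the arrays on their medians gave -0.68 (adjusted p = 0.596).

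Muc4, a large membrane mucin that can bind ErbB2, had 3 probe sets that did not behave alike. The brightest, 1438555_x_at, measured 4714, 4534 and 5171 on the duct arrays and 2741 and 3210 on the basal arrays. All duct arrays stood above both basal arrays, with a log2 fold change of 0.69 (SE 0.23, 95% interval 0.11 to 1.27, adjusted p = 0.211 with limma). The adjusted p was 0.0291 with trend and robust, which called 565 of all 12536 genes higher, against 105 in the main fit. The suffix of this probe set marks it as one that may also bind other transcripts. The probe set 1427398_at measured 260.3, 104.2 and 172.2 on the duct arrays and 12.4 and 226.9 on the basal arrays. Basal replicate 1 was below its controls there and basal replicate 2 lay within the duct range, so the groups overlapped. Its log2 fold change was 1.15 (95% interval -1.11 to 3.41, adjusted p = 0.602 over 27022 probe sets), and -0.40 without basal replicate 1. The remaining probe set, 1432119_at, measured 6.86 to 13.0 on the duct arrays and 1.57 to 6.81 on the basal arrays, all under the brightest control of the same array, so its order carries no information.

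Muc20, a membrane mucin gene that neighbours Muc4 on the chromosome, had 2 probe sets. On 1451786_at it measured 306.5, 229.4 and 189.1 on the duct arrays and 98.0 and 131.5 on the basal arrays. The duct arrays were all higher, by a log2 fold change of 0.97 (SE 0.30, 95% interval 0.23 to 1.71, adjusted p = 0.186 with limma). On 1442960_at it measured 12.2, 14.2 and 40.5 on the duct arrays and 13.0 and 97.1 on the basal arrays, so that only basal replicate 2 was above its controls. The mean of both probe sets gave a log2 fold change of 0.16 (adjusted p = 0.872).

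Muc16, the large membrane mucin known as CA125, did not separate the groups. It measured 1536, 1122 and 1023 on the duct arrays and 1403 and 1554 on the basal arrays. Duct replicate 1 lay between the basal arrays and the other duct arrays lay below them. The log2 fold change was -0.29 (SE 0.28, 95% interval -0.97 to 0.40, adjusted p = 0.623 with limma), and the interval holds the value found for Muc1.

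The promoter windows of the 3 membrane mucins whose groups did not overlap are shown because these are the genes whose brightest probe set separated the arrays: above the basal arrays for the neighbours Muc4 and Muc20, and below them for Muc1. Such separation is common here, with the duct arrays above both basal arrays in 16.5% and below both in 22.6% of all genes tested. None of the 3 passed the test, and the other probe sets of Muc4 and Muc20 overlapped between the groups or lay under the brightest control. They run from 250 bases before to 50 bases after the gene start, 5′ to 3′ on the gene's strand, from a table of RefSeq promoters (GRCm38.p6) in which 6 of the 10 genes were matched; those of Muc5b, Muc5ac, Tff2 and Creb3l1 were not used here. Capitals mark matches, on either strand, to CCGGAT (an ETS core of the kind SPDEF prefers), TGTTTAC (forkhead factors such as FOXA), TGACGTG (the CREB and unfolded-protein-response core), CTCAAG (NKX2-1) or TATAAA (the core promoter element bound by TBP).
Muc4, chr16:32735636-32735935, plus strand: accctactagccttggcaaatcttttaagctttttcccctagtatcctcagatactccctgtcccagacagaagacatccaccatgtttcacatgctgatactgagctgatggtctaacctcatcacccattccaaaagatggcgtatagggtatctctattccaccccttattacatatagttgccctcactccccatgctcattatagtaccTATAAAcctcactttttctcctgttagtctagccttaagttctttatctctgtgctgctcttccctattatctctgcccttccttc
Muc20, chr16:32797386-32797685, minus strand: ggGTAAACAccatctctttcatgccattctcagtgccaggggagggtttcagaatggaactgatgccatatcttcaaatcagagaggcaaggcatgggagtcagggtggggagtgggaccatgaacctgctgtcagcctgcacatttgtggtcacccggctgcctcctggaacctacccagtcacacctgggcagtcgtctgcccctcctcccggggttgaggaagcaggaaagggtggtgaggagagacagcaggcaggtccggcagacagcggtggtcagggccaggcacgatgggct
Muc1, chr3:89228806-89229105, plus strand: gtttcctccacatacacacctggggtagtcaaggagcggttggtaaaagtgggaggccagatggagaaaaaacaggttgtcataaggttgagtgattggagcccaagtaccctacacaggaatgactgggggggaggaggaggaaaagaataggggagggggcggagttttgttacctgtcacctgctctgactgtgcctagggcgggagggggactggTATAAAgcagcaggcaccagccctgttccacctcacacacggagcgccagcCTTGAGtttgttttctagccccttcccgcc
Muc4 and Muc1 each hold TATAAA, whose first base lies 36 bases before the start of Muc4 and 31 bases before that of Muc1; 13.6% of all 32851 promoter windows hold it. Muc1 also holds CTCAAG on the opposite strand, 21 bases into the gene, as 15.9% of all windows do on either strand. Muc20 holds TGTTTAC on the opposite strand near the window's far end, which 3.65% of windows hold. No window of the 6 genes held CCGGAT, which occurs in 6.04% of all windows. Outside the 3 printed windows, that of Spdef held TGACGTG, found in 2.01% of windows, and CTCAAG, and those of Agr2 and Muc16 held no match to any of the 5 motifs. These are matches of letters and not binding sites. None of the motifs searched was in both the Muc4 and the Muc20 window.

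**Figure D2:**
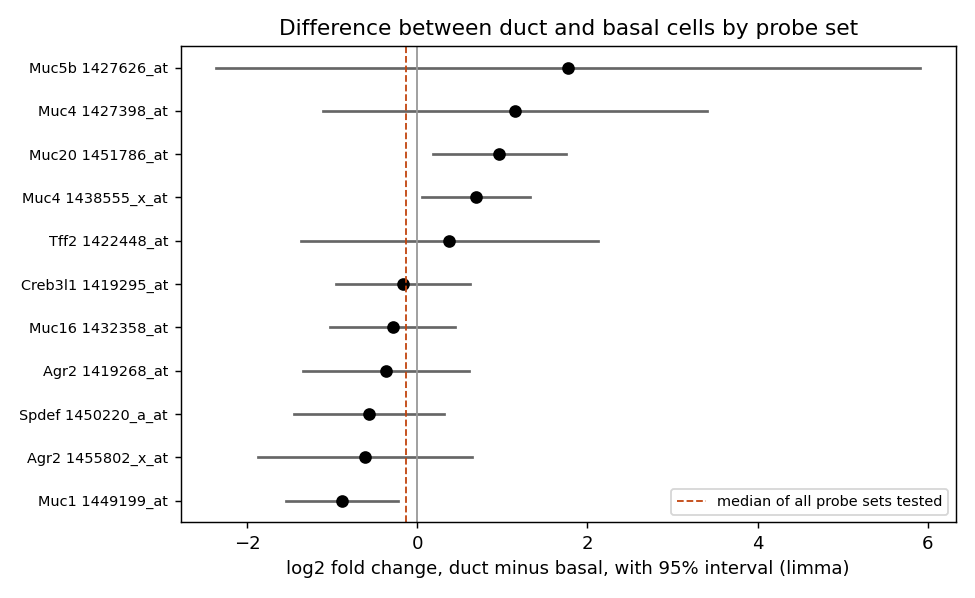
Fold change (log2, duct minus basal) with its 95% interval from limma for the 11 probe sets above the filter on dim values; the dashed line is the median of all 27022 probe sets tested, -0.13. The intervals of Muc20 (1451786_at), Muc4 (1438555_x_at) and Muc1 leave out 0 before adjustment, and that of Muc5b runs from -2.36 to 5.91.

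Of the secreted mucins, Muc5b was measured at 1176, 296.8 and 759.1 on the duct arrays and at 8.81 and 1491 on the basal arrays. Basal replicate 1 was below its brightest control and basal replicate 2 was above every duct array. The group means were nearly the same, 744 ± 440 (SD, n = 3) in duct and 750 ± 1048 (SD, n = 2) in basal cells. On the log scale the fold change was 1.77 (SE 1.69, 95% interval -2.40 to 5.94, adjusted p = 0.617 with limma). With a pseudocount of 1 it was 2.41, and with a pseudocount of 64 it was 1.09. It was 4.74 without basal replicate 2 and -1.19 without basal replicate 1 (adjusted p = 0.161 and 0.631), so its direction rested on which basal array was kept. In these refits the spread comes from the duct arrays alone. The sizes of 4.74 and of 1.77 are not measured, since both use basal replicate 1, which was not above its controls.

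Basal replicate 2 exceeded basal replicate 1 by 5.92 in Muc5b on the log2(intensity + 16) scale, the highest such difference of the 27022 probe sets tested. Since basal replicate 1 had only a bound, the contrast is stated as at least 25.0-fold, the ratio of basal replicate 2 to the brightest control of basal replicate 1. With each array set no lower than its brightest control, Muc5b ranked 3 among these probe sets. Over the duct arrays the highest value of Muc5b was 3.96 times the lowest, against a median of 1.71 times over all probe sets tested.

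Muc5ac, the other gel-forming mucin and the next gene to Muc5b on the chromosome, had 1 probe set, at 36.6, 112.8 and 39.6 on the duct arrays and at 34.2 and 53.0 on the basal arrays. Duct replicate 2 alone was above its controls, and the groups overlapped. With no filter on dim probe sets the log2 fold change was 0.29 (95% interval -0.94 to 1.53, adjusted p = 0.878 over all probe sets with limma). The probe set lay at the 27.2 percentile of mean log2 intensity, and a level of Muc5ac in either group was not detectable over this background on 4 of the 5 arrays.

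Tff2, a trefoil peptide secreted with mucus, was above background on all 5 arrays and also spread widely within each group. It measured 402, 526.1 and 1299 on the duct arrays and 259.9 and 942.6 on the basal arrays. Duct replicate 3 was highest and basal replicate 1 lowest. The log2 fold change was 0.38 (SE 0.71, 95% interval -1.36 to 2.12, adjusted p = 0.809 with limma). It turned to -0.52 without basal replicate 1 and to -0.11 without duct replicate 3. With the replicate number as a block the value was the same -0.11 by design, since only duct replicate 3 has that number.

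Agr2 was among the brighter transcripts, with both probe sets at the 94.5 to 94.6 percentile of mean log2 intensity. On 1419268_at it measured 3252, 2184 and 2465 on the duct arrays and 2351 and 4768 on the basal arrays. Basal replicate 2 stood above all others, and basal replicate 1 lay among the duct arrays. The second probe set, 1455802_x_at, measured 3491, 2288 and 1695 on the duct arrays and 2311 and 5784 on the basal arrays, again with basal replicate 2 highest. Their log2 fold changes were -0.37 (95% interval -1.34 to 0.61) and -0.61 (95% interval -1.87 to 0.64), with adjusted p of 0.704 and 0.617 over all probe sets with limma. Without basal replicate 2 these were 0.14 and 0.04.

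Spdef was dim, at 89.9, 113.1 and 72.0 on the duct arrays and at 103.2 and 191.3 on the basal arrays. Each array was above its own brightest control, and basal replicate 2 was again the highest. The log2 fold change was -0.56 (SE 0.34, 95% interval -1.41 to 0.28, adjusted p = 0.431 with limma), and it was -0.16 without basal replicate 2 and -0.96 without basal replicate 1. Creb3l1, a transcription factor anchored in the endoplasmic reticulum membrane that is also known as OASIS, measured 213, 136.9 and 136.3 on the duct arrays and 157.8 and 204.5 on the basal arrays. Its groups overlapped with a log2 fold change of -0.16 (SE 0.30, 95% interval -0.91 to 0.58, adjusted p = 0.804 with limma), which turned to 0.04 with each array centred on its median. The median of all genes tested was itself -0.12, and 0.08 with that centring, so values of this size are read against it.

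**Figure D3:**
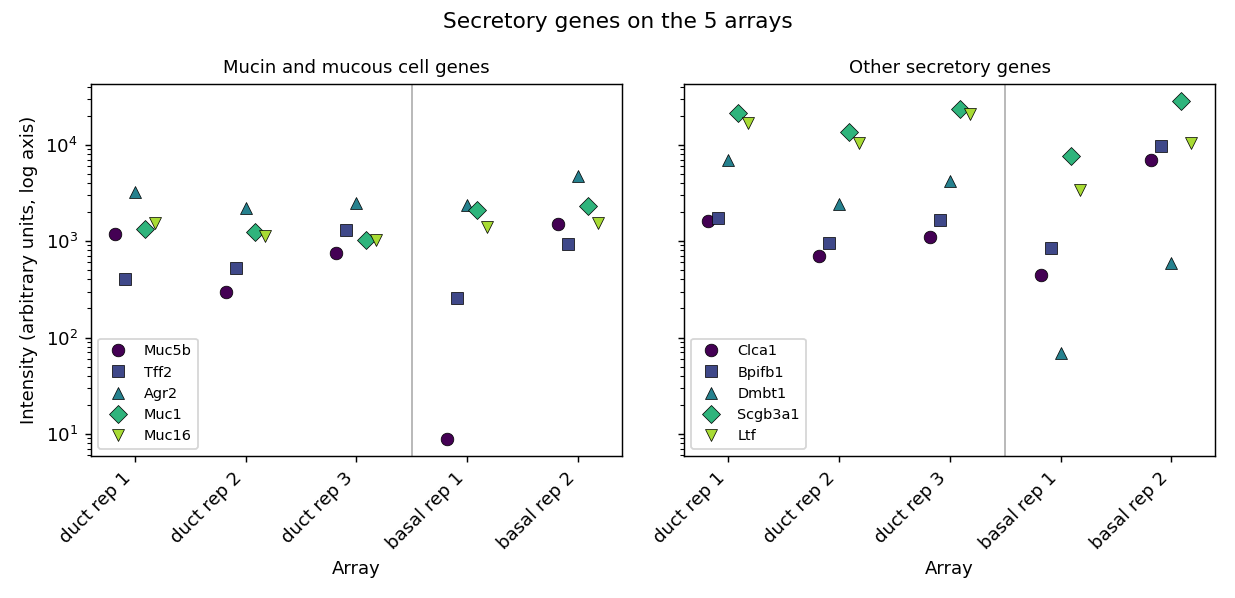
Intensity (arbitrary units, log axis) of 5 of the genes and of 5 other secretory genes on each array, duct arrays at the left and basal arrays at the right, with 1 symbol per gene. Muc5b, Tff2 and Agr2, and all 5 genes of the right panel, are higher on basal replicate 2 than on basal replicate 1, while Muc1 and Muc16 differ little between these arrays.

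All 9 tested genes had a higher value on basal replicate 2 than on basal replicate 1, against 51.6% of all genes tested; this sets 1 array against 1 and has no test. The linear ratio was at least 25.0 for Muc5b as given above, 3.63 for Tff2, 2.03 for Agr2 and 1.85 for Spdef, but 1.12 for Muc1 and 1.11 for Muc16. Creb3l1 and Muc20 were at 1.30 and 1.34 and the brightest Muc4 probe set at 1.17. Of the 9 tested mucus-layer proteins 8 were higher on basal replicate 2; Tff1, a trefoil peptide, was lower there, at 207.3 against 303.4, and Bpifa1 was nearly level. Clca1, a protein secreted by goblet cells, measured 440.7 on basal replicate 1 and 6907 on basal replicate 2, and ranked 9 of the 12536 genes in this difference. Fcgbp, a mucin-associated protein, measured 108.6 and 1622 and ranked 12, and Bpifb1, an airway secretory protein also known as LPLUNC1, measured 845.2 and 9579 and ranked 17. Fcgbp was chosen after its values were seen.

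Markers of other cells were also higher on basal replicate 2. The summed intensity of the tested gland serous and acinar markers was 68177 on that array and 28944 on basal replicate 1, with 6 of 6 higher. For ciliated cell markers it was 3884 and 1813, with 5 of 6 higher, and for leukocyte markers 17725 and 5794, with 5 of 5 higher; Lyz2, which is on the serous list too, made up 16327 and 5374 of these leukocyte sums. The other 4 leukocyte markers measured 199.7 to 533 on basal replicate 2 and 24.9 to 254.4 on basal replicate 1. Club cell markers summed to 158212 and 111585, with 6 of 8 higher. These sums are carried by few genes. Scgb1a1 measured 32690 on basal replicate 2 and 9934 on basal replicate 1, and Scgb3a1 28609 and 7615. Both are also on the list of mucus-layer proteins and were counted there. The club cell markers Scgb3a2, at 32688 and 32282, Cyp2f2, at 29586 and 30636, and Gabrp, at 11282 and 11299, were nearly level. Dynlrb2 made up 1486 and 176.7 of the ciliated sums. On the duct arrays the sums were 55036 to 79557 for serous and acinar, 1829 to 2458 for ciliated, 14189 to 20493 for leukocyte and 93619 to 110066 for club cell markers. Cd74, a leukocyte marker, was below the brightest control on basal replicate 1, at 24.9 against 59.7. Dnah5, a ciliated cell marker, was below it on basal replicate 2, at 81.8 against 86.5. The other tested markers of these lists were above the brightest control on every array. The defining genes Foxj1 of ciliated cells and Lpo of serous cells were below the filter on dim probe sets. The part of these cells in the Muc5b values was not tested.

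Within the duct group, Muc5b and several secreted proteins were lowest on duct replicate 2. Clca1 measured 1615, 695.6 and 1115 on duct arrays 1, 2 and 3, and Dmbt1, a secreted scavenger receptor of mucosal surfaces, 6873, 2424 and 4198. Scgb3a1, a secretoglobin, measured 21291, 13393 and 23221. Tff2 did not share this order, and neither did every other secreted protein. Fcgbp was lowest on duct replicate 3, at 681.1, 321.3 and 239.2 on duct arrays 1, 2 and 3. Tff1, at 174.7, 549.3 and 320, and Dcpp3, of the serous and acinar list, at 331.9, 1522 and 389.7, were highest on duct replicate 2. The share of all genes lowest on duct replicate 2 was not computed.

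The genes whose pattern over the 5 arrays was most like that of Muc5b, by root mean square difference of log2 values centred on each gene's mean, were Hdc, the histidine decarboxylase gene, Tex33 and Glra1, at 0.78, 0.90 and 0.95. Hdc measured 216.4, 96.1 and 149.4 on the duct arrays and 5.94 and 447 on the basal arrays. Those most like Muc1 were Cyp4b1, a cytochrome P450 gene, Fam210a and Ngrn, at 0.026, 0.037 and 0.044. Cyp4b1 measured 5694, 5289 and 4385 on the duct arrays and 9176 and 10341 on the basal arrays. Muc5b was far from every other gene of the 9, at 1.69 from the nearest, Tff2; the closest pair was Muc16 and Creb3l1, at 0.099, and Muc4 and Muc20 were at 0.29. On basal replicate 1, Muc5b, Hdc, Tex33 and Glra1 were all below the brightest control, so their distances and order rest in part on values not above background. Likeness over 5 arrays is a description only.

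Over 6 lists of other mucins, regulators of mucous differentiation, O-glycosylation enzymes, folding and secretory pathway genes, granule exocytosis genes and mucus-layer proteins, 86 genes were tested and 0 were called with limma, against 0.973% of all genes. At an unadjusted p under 0.05, 4 were higher and 10 lower in duct cells, where 7.91% of all genes tested were higher and 10.6% lower. These shares apply to each list below, and with 3 to 28 genes tested a list, counts this small say little about a list. Their median log2 fold change was -0.09, beside -0.12 for all genes tested.

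Other mucins were mostly dim. Of 14 listed genes 8 had a probe set and 3 were tested, with a median of -0.20. Muc13, a membrane mucin of the gut, measured 62.4, 122.9 and 489.7 on the duct arrays and 92.9 and 18.3 on the basal arrays (log2 fold change 1.53, adjusted p = 0.414 with limma), so that the groups overlapped, and basal replicate 2 was below its controls. Muc2, the gel-forming mucin of the intestine, measured 43.1 to 128.6 on the duct arrays and 76.3 to 124.8 on the basal arrays (-0.20, adjusted p = 0.847). Basal replicate 2 was below its controls for Muc2 too, at 76.3 against 86.5. Cd164, a sialomucin of many cell types, averaged 3048 in duct and 3851 in basal cells (-0.34, adjusted p = 0.516).

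Among the regulators 15 of 18 were tested, with 1 higher and 2 lower before adjustment (7.91% and 10.6% of all genes) and a median of -0.20. Notch1, a receptor that steers secretory against ciliated fate in the airway, measured 3217, 2670 and 3705 on the duct arrays and 1244 and 1742 on the basal arrays. The duct arrays were all higher (log2 fold change 1.10, adjusted p = 0.136 with limma; adjusted p = 0.0133 with trend and robust). Runx1, a transcription factor of blood and epithelia, was lower on every duct array, at 5926, 5968 and 5346, than on the basal arrays, at 8594 and 10851 (-0.75, adjusted p = 0.199; adjusted p = 0.0109 with trend and robust). Foxm1, a cell cycle factor, had -0.71 with overlapping groups (adjusted p = 0.468), and the abundant factors Klf4 and Klf5 had 0.25 and 0.26 (adjusted p = 0.658 and 0.594). Foxa2, a repressor of mucous differentiation in the mouse lung, lay below the filter and was not tested; it was chosen for mention after this was seen.

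O-glycosylation enzymes build the sugar chains of mucins, and 28 of 35 were tested, with 1 higher and 5 lower before adjustment (all genes, 7.91% and 10.6%) and a median of -0.20. Galnt5, one of the transferases that start O-glycan chains, came nearest to a call of all pathway genes. It measured 179.8, 170.5 and 173.2 on the duct arrays and 516.1 and 792.9 on the basal arrays. All duct arrays were lower (log2 fold change -1.78, adjusted p = 0.0565 with limma), and 5 of the alternative settings called it, with adjusted p of 0.0199 to 0.0472. The sialyltransferases St3gal1 and St3gal3 lay apart: St3gal1 measured 1346, 842.1 and 542.9 on the duct arrays and 190.2 and 417.1 on the basal arrays (1.54, adjusted p = 0.199). St3gal3 measured 109.3, 170.1 and 167.8 on the duct arrays and 464.7 and 378 on the basal arrays (-1.42, adjusted p = 0.0923; adjusted p = 0.0437 under the stricter 60% filter). Gcnt1, which makes the core 2 branch, averaged 2184 in duct and 4206 in basal cells (-0.95, adjusted p = 0.179, and 0.0235 with trend and robust). B3gnt2, an N-acetylglucosaminyltransferase, averaged 3602 in duct and 2387 in basal cells (0.59, adjusted p = 0.286).

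Folding and secretory pathway genes were all tested, 16 of 16, with 1 higher and 3 lower before adjustment, beside 7.91% and 10.6% of all genes, and a median of 0.13. Creb3l4, a relative of Creb3l1, measured 69.5, 19.8 and 53.1 on the duct arrays and 273.3 and 284.3 on the basal arrays. Duct replicates 2 and 3 were below their controls (log2 fold change -2.31, adjusted p = 0.0742 with limma; adjusted p = 0.0342 to 0.0467 under the 3 alternative settings that called it). Ern2, the unfolded protein sensor of mucus-making epithelia, measured 45.8, 92.4 and 92.2 on the duct arrays and 315 and 164.5 on the basal arrays, with all duct arrays lower (-1.44, adjusted p = 0.157). Slc35a1, the CMP-sialic acid transporter, had -0.91 (adjusted p = 0.219, and 0.0477 with trend and robust). The abundant Sec61a1, a translocon subunit, and Hspa5, the chaperone BiP, had 0.12 and 0.47 (adjusted p = 0.816 and 0.330). With trend and robust, Hspa5 had an adjusted p of 0.0327.

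Granule exocytosis genes had no member at an unadjusted p under 0.05 in either direction (0 of 15 tested, beside 7.91% higher and 10.6% lower of all genes), and a median of 0.10. The complexin Cplx1 had a log2 fold change of -1.30 with overlapping groups (adjusted p = 0.435 with limma) and was below its controls on duct replicate 2. Cplx2 was below the controls on duct replicate 1 and on both basal arrays, so no fold change is given for it (adjusted p = 0.512). P2ry2, the purinergic receptor that triggers mucin release, measured 151.9, 158.8 and 312 on the duct arrays and 72.7 and 145.4 on the basal arrays (0.83, adjusted p = 0.366). Vamp8, a granule SNARE of airway secretory cells, averaged 8726 in duct and 12379 in basal cells (-0.51, adjusted p = 0.333), and Marcks, a substrate of protein kinase C that takes part in mucin release, 7469 in duct and 5328 in basal cells (0.49, adjusted p = 0.344).

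Mucus-layer proteins held the largest fold change of the genes tested in these 6 lists. Dmbt1 measured 6873, 2424 and 4198 on the duct arrays and 69.1 and 595.4 on the basal arrays. Every duct array was higher, but the basal arrays also differed 8.62-fold (log2 fold change 4.18, 95% interval 1.98 to 6.38, adjusted p = 0.0976 with limma). The adjusted p was 0.00111 with median centring, 0.0475 with a pseudocount of 64 and 0.0495 with the 60% filter. It was the 1 gene of 9 tested at an unadjusted p under 0.05, where 7.91% of all genes were higher, and the list's median was -0.02. Clca1 and Bpifb1 had -0.70 and -1.02 with overlapping groups (adjusted p = 0.777 and 0.623). Bpifa1, a secreted protein of the upper airway also called SPLUNC1, was among the brightest transcripts and nearly level, at 37171 to 48513 on the duct arrays and 41496 to 42638 on the basal arrays (-0.02, adjusted p = 0.976). Scgb3a1 had 0.35 (adjusted p = 0.793).

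**Figure D4:**
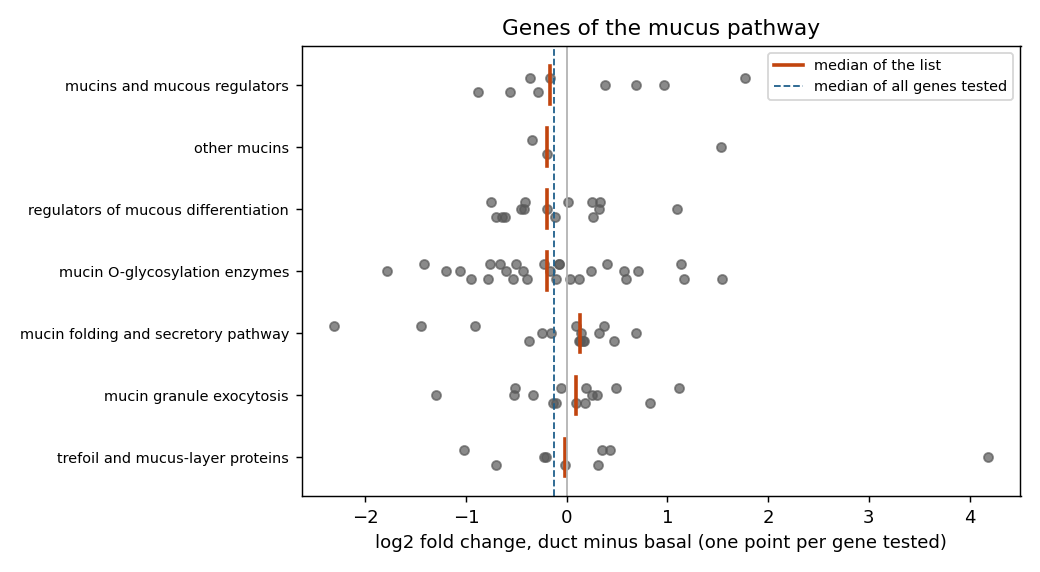
Fold change (log2, duct minus basal) of each tested gene of the mucin group and of 6 lists of the mucus pathway, with the median of each list and, dashed, that of all 12536 genes tested (-0.12). Each list spreads to both sides of 0, and Dmbt1 stands alone at 4.18 among the mucus-layer proteins.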

How the data were processed

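The authors deposited a table of linear intensity values, with a column for each of the 5 arrays. Arrays had been scaled to a common level, since their means trimmed by 2% at each end all equal 500.003. How probes were summarised and background was corrected is not given in the sources used here. The table held 0 columns of other samples. Of 45101 probe sets, 64 controls were left out; 34945 had 1 gene symbol, 932 several and 9160 none.

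The brightest probe set by mean log2 value stood for each gene, and the lowest 40% of probe sets were left out. That left 12536 genes and 27022 probe sets, fitted separately on log2(intensity + 16) with lmFit and eBayes of limma 3.58.1 (R 4.3.3), 2-sided, without covariates, at an adjusted p of 0.05. Residual degrees of freedom were 3, plus 2.79 from the prior. The fit was tested on simulated data. Pairwise, arrays shared at most 1 identical value.

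The genes and lists, from textbook knowledge, were chosen with earlier results of these data known. Named were the 10 genes; in each list, called genes, the 3 largest fold changes and the 2 highest means; and the 3 nearest patterns of the genes with the extreme fold changes. Alternatives were 2 normalizations, pseudocounts of 1 and 64, no filter and one at 60%, probe set rules, variance models, a replicate block and leaving out each array. Figures were drawn with matplotlib 3.10.9. Where duct cells are compared with basal cells, only 2 basal arrays set the spread of that group. Each array is a separate pool of mice, which limits the precision.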

Additional observations from a re-analysis of the deposited data

How the results depend on the processing

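Of 291 values of single genes or probe sets under 16 alternatives, 272 kept their direction and side of the threshold, 16 turned and 3 passed it. Part of the 272 was fixed in advance. No value was called in the main fit, so none could lose a call. The filter and the trend and robust settings leave the fold change of a probe set as it is. The replicate block gives a probe set the same fold change as leaving out duct replicate 3, the only array with that number. It is therefore no separate check of direction. Many probe sets count in both the gene and the probe set fit. Those that passed were Muc1 and Muc4 in the gene fit and Muc4 in the probe set fit, all with trend and robust. Of the genes described here, this setting called 1 higher and 1 lower, and 1 probe set higher. Over all 12536 genes it called 565 higher and 377 lower, and 798 of 27022 probe sets higher. Those that turned were Agr2 (0.14 and, on its second probe set, 0.045 without basal replicate 2), Creb3l1 (0.042 with median centring, 0.0070 without basal replicate 2), Muc5b (-1.19) and Muc4 1427398_at (-0.40) without basal replicate 1, and Tff2 (-0.52 without basal replicate 1, -0.11 without duct replicate 3 and with the replicate block). Leaving out 1 array gave -0.87 to 0.14 and -1.27 to 0.045 for the Agr2 probe sets, -0.36 to 0.0070 for Creb3l1, -1.19 to 4.74 for Muc5b, -0.40 to 2.70 for Muc4 1427398_at, -0.52 to 1.28 for Tff2, -0.96 to -0.16 for Spdef and -0.46 to -0.17 for Muc16. Without a basal replicate, the duct arrays alone give the spread. The cause was not tested.

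Over all genes, where 105 were higher and 17 lower, median centring gave 281 and 57, a pseudocount of 64 gave 208 and 95, no filter 35 and 1, the 60% filter 250 and 158, trend and robust 565 and 377, and the replicate block 0 and 0. Lower calls were 28 with quantile normalization, 49 with the mean of probe sets and 40 with array weights. Leaving out 1 array gave 0 to 38 higher and 0 to 1 lower. Over probe sets, where 58 were higher and 5 lower, median centring gave 318 and 57, a pseudocount of 64 gave 167 and 39, no filter 27 and 0, the 60% filter 245 and 96, trend and robust 798 and 417, and the replicate block 0 and 0. A pseudocount of 1 gave 1 lower, and leaving out 1 array 0 to 24 higher and 0 lower. Among the 86 pathway genes, median centring called 1 higher and 1 lower, a pseudocount of 64 and the 60% filter each 1 and 2, trend and robust 2 and 6, and the mean of probe sets and array weights each 1 lower. List medians ranged from -0.34 to 0.96 for other mucins, -0.33 to 0.05 for regulators, -0.26 to 0.0085 for O-glycosylation, -0.10 to 0.33 for folding, -0.11 to 0.30 for exocytosis and -0.61 to 1.08 for mucus-layer proteins.

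The labels do not say that the replicate numbers pair the samples, which came from separate pools. Deviations from the group means correlated at -0.083 for number 1 and -0.037 for number 2 across genes. With only 2 basal arrays, both correlations use the same basal difference, so they cannot decide whether arrays of a number were handled together. The block left 1 residual degree of freedom and called no gene of interest. Creb3l1, Muc20 and Spdef were too dim for a value with the 60% filter. Muc5ac was tested only with no filter. Signal near the controls limits Muc5ac, Spdef and the dim Muc4 and Muc20 probe sets.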
